A study of Rattus norvegicus with 6 samples.

Results

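The 39 genes described here are interferon-stimulated genes, chosen as a list by symbol, and were measured in liver tissue of rats by RNA sequencing. All 39 had 1 row among the 32623 genes of the deposited table, and all 39 passed the filter on low counts that left 14499 genes to be tested. The TAE group (3 libraries) came from rats that underwent transarterial embolization, in which the arteries feeding a liver tumour are blocked, and the HCC group (3 libraries) from rats of the same hepatocellular carcinoma study that received no treatment. The labels give liver as the tissue of every library. The sources used here do not give the strain, age, tumour model, embolic material or interval after embolization.

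None of the 39 genes passed the test between TAE and HCC, beside 3.01% of all genes tested. They split almost evenly by direction, with 20 log2 changes above 0 and 19 below, and their median log2 change was 0.02. In edgeR's main test, the guanylate-binding proteins and the interferon regulators all had log2 changes above 0. All members of the ISG15 pathway and of the IFIT family had log2 changes below 0. Over the alternatives, such as other methods or 1 library left out, some of these signs changed. Gbp5 ran from -0.04 to 0.18, Irf7 from -0.30 to 0.47, Stat2 from -0.01 to 0.21 and Usp18 from -0.40 to 0.14. The other genes of these roles kept their sign. Within the TAE group the libraries differed more than the HCC libraries did, for 87.2% of members and 82.7% of all genes by FPKM. In FPKM, Isg15, Oasl, Rsad2 and Isg20 were low in TAE replicates 1 and 3. TAE replicate 2 was within or just above the HCC range for them. After TMM scaling, TAE replicate 2 was also below every HCC library for Isg15 and Rsad2. By FPKM, TAE replicates 1 and 3 were below every HCC library, and TAE replicate 2 not, for 10 members and 20.9% of genes. After TMM scaling this held for 5 members and 15.1% of all genes.

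Interferons are secreted proteins that cells release when they sense foreign or misplaced nucleic acids, or, in the case of interferon-gamma, that activated T and NK cells release. Type I and type III interferons act through receptors whose JAK kinases activate a complex that holds STAT2 and IRF9 and binds a DNA element called ISRE, whereas the interferon-gamma receptor acts on genes that carry an element called GAS. The induced genes encode sensors, enzymes and binding proteins that restrict virus replication, together with regulators that extend or end the response, and in liver they are expressed by hepatocytes as well as by macrophages and endothelial cells.

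The total count was 14552885 to 16604067 per TAE library and 13448286 to 14370846 per HCC library. The 39 genes took 0.311%, 0.399% and 0.311% of the counts in TAE replicates 1 to 3 and 0.324%, 0.323% and 0.344% in HCC replicates 1 to 3. FPKM is the count scaled to exon length and to the library total. On that scale the median tested gene stood at 0.08, 0.20 and -0.13 (log2) from the HCC mean in TAE replicates 1, 2 and 3, and TMM scaling, which the test used, brought these to -0.01, -0.01 and 0.01. Hepatocyte markers were abundant in every library, with a summed level of 12854, 9738 and 27965 FPKM in TAE replicates 1 to 3 and 22332 to 27445 FPKM in HCC. Of 5 liver tumour markers tested, 0 passed, and their median log2 change was 1.06. Afp was at 1.21 to 2.06 FPKM in TAE and 1.63 to 2.20 FPKM in HCC, and Gpc3 at 2.61 to 5.95 FPKM in TAE and 0.79 to 1.25 FPKM in HCC, every TAE library being above every HCC library. The summed level of the 5 was 224 to 446 FPKM in TAE and 305 to 324 FPKM in HCC, nearly all of it Gstp1. A lower level in bulk tissue can come from fewer cells of a type or from less RNA per cell, and these cannot be told apart here.

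The 2 elements were searched in promoter windows from RefSeq (build GRCr8), which span 250 bases before to 50 after the annotated start and were found by symbol for 29 of the 39 genes. Ddx58, Dhx58, Zbp1, Isg15, Usp18, Ifit1, Ifit2, Oas2, Mx2 and Rtp4 had no entry. An ISRE core, searched on both strands as GAAA, any 2 bases and GAAA again, was present in 18 of the 29 windows (62.1%), against 3.92% of all 33469 windows. A GAS core, searched as TTC, any 3 bases and GAA, which reads alike on both strands, was present in 7 of the 29 windows (24.1%), against 8.87% of all windows, and 4 genes had both motifs. Overlapping ISRE matches were counted separately, and in Bst2 a GAS match overlapped an ISRE match. The 250 bases before the start are shown for 6 genes whose values are described below, 3 with higher and 3 with lower mean FPKM in TAE, with motif matches in capitals; an ISRE on the opposite strand reads TTTC, 2 bases and TTTC.
Irf1 (chr10:38417685-38417934, + strand): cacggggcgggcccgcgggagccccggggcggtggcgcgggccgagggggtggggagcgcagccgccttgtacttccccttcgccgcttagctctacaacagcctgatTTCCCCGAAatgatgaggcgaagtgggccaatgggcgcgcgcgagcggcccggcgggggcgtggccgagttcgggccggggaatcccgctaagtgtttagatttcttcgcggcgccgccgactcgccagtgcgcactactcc
Gbp2 (chr2:234005477-234005726, + strand): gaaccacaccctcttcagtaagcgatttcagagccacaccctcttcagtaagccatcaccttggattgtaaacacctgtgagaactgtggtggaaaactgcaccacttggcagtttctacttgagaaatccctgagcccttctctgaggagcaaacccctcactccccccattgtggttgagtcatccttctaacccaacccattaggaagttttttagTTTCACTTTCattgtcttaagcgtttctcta
Gbp4 (chr2:233978236-233978485, + strand): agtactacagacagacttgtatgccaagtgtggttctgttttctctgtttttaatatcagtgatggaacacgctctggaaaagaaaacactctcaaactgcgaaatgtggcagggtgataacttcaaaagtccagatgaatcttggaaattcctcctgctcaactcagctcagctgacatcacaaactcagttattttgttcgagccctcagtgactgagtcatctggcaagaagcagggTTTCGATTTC
Ifit3 (chr1:241527076-241527325, + strand): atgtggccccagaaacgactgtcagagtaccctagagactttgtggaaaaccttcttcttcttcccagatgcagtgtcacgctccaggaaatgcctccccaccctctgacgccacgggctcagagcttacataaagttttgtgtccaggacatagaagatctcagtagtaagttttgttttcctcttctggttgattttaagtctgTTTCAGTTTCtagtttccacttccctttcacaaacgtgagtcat
Rsad2 (chr6:48788121-48788370, - strand): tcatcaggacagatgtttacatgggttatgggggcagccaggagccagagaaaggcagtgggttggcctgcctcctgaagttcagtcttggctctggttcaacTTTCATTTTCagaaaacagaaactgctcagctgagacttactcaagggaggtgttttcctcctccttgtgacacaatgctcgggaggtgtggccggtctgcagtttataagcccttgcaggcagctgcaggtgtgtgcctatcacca
Isg20 (chr1:142239809-142240058, + strand): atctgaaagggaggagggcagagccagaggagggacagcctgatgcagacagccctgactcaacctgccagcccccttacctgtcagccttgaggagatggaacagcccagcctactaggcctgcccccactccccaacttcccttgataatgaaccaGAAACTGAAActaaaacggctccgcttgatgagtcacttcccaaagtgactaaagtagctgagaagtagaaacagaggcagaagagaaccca

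Each further gene is shown by its ISRE match with 10 bases on either side, read in the direction of the motif, to show the core in 7 more members. Oas1a and Bst2 each have a second ISRE match that overlaps the one in capitals.
Irf7 (chr1:205800073-205800102, + strand): tgcgtctcggGAAAATGAAAcctaaactgt
Ifih1 (chr3:67684008-67684037, - strand): gaagagaatcGAAACAGAAAccgatgtgtg
Eif2ak2 (chr6:21941128-21941157, + strand): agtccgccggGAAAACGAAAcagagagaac
Parp12 (chr4:68850540-68850569, + strand): ggaaggaaacGAAACCGAAAgccggcccca
Oas1a (chr12:41330421-41330450, + strand): tcgggaaatgGAAACTGAAAatcttgttcc
Bst2 (chr16:18255073-18255102, - strand): ccaggaaaatGAAACTGAAAggtggcagca
Xaf1 (chr10:57415914-57415943, + strand): tgtgtgcaaaGAAACAGAAActccaccgaa

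The capitals in Irf1 are its GAS match, and Irf1 had no ISRE in the window. Of 22 ISRE matches, 16 began within the last 100 bases before the start. Genes with an ISRE did not share a direction: 12 of the 18 had a log2 change above 0 and 6 below, from -0.70 (Isg20) to 0.51 (Gbp4). Of the 11 genes with a window but no ISRE, 5 were above 0 and 6 below. A match is a stretch of letters and was not tested as a binding site.

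**Figure D1:**
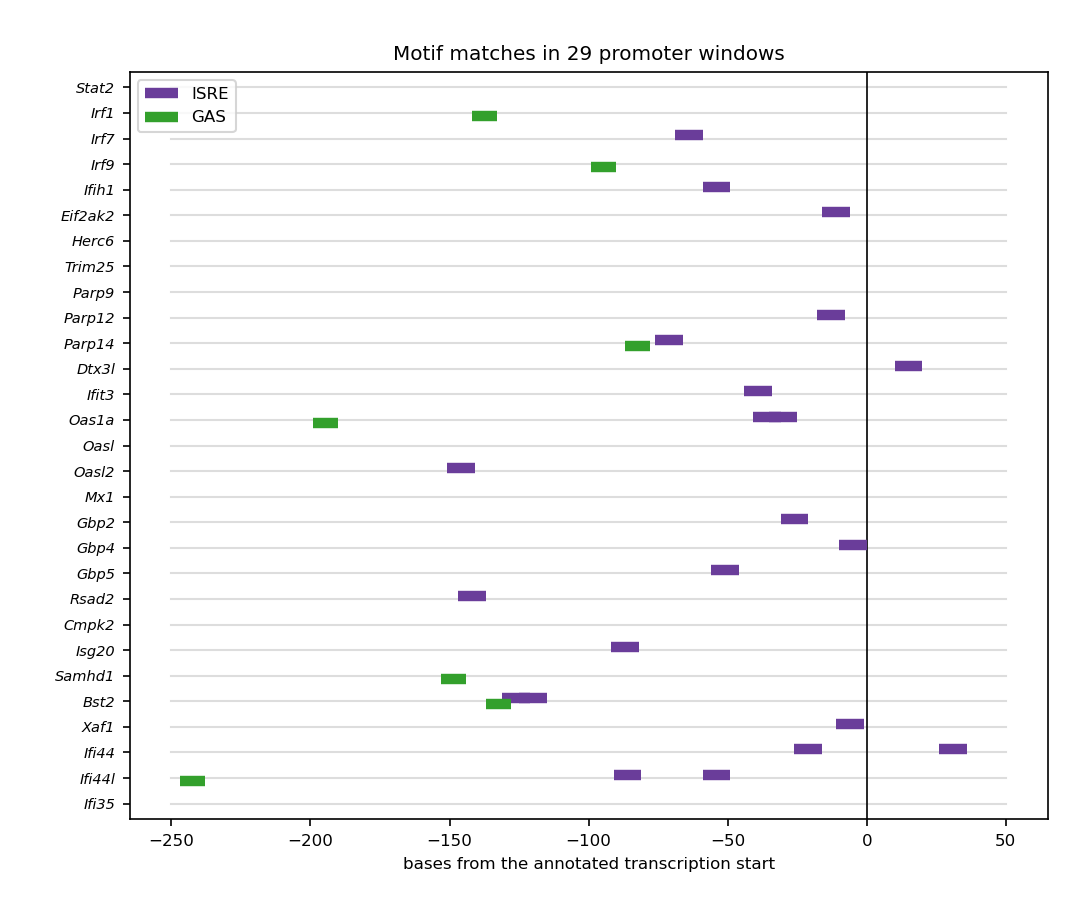
Position of ISRE (violet) and GAS (green) matches in the promoter windows of 29 interferon-stimulated genes; the x axis gives bases from the annotated start, and each grey line is 1 window of 300 bases. ISRE matches lie in 18 windows and GAS matches in 7, and 16 of the 22 ISRE matches begin within 100 bases before the start.

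Whether embolization moved these genes was asked with edgeR's quasi-likelihood test of TAE against HCC, adjusted over all 14499 genes by the Benjamini-Hochberg method. Of the 39 members, 0 passed an adjusted p of 0.05, against 3.01% of all genes tested (2.7% higher and 0.31% lower in TAE). Unadjusted p was under 0.05 for 9 of the 39 (Irf1, Parp12 and Gbp4 higher, and Isg15, Herc6, Ddx58, Mx2, Oasl and Rsad2 lower in TAE), against 22.7% of all genes (15.9% higher and 6.82% lower). With DESeq2, which called 10.6% of genes, 1 member passed: Herc6, with a log2 change of -0.72 (DESeq2 adjusted p = 0.0460). The median log2 change of the 39 was 0.02, beside -0.03 for all genes tested, and the single changes ran from -0.72 (Herc6) to 0.51 (Gbp4). The lowest edgeR adjusted p was 0.117, for Herc6. The labels do not say that the libraries of a group came from separate animals, and p-values measure only the spread between these libraries, which may be technical.

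The intervals show what size of change these data leave room for. For 29 of the 39 genes the 95% interval of the log2 change lay wholly between -1 and 1, which leaves out a 2-fold change in either direction, as it did for 57.3% of all genes tested. The interval reached past a 2-fold change for the other 10 members, downwards for Isg15, Herc6, Ifit1, Oas1a, Oasl, Mx2, Rsad2 and Isg20 and upwards for Zbp1 and Oas2. The lowest bound of any member was -1.42 (Isg20) and the highest 1.17 (Oas2). A p that misses the threshold does not show that a gene was unchanged.

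**Figure D2:**
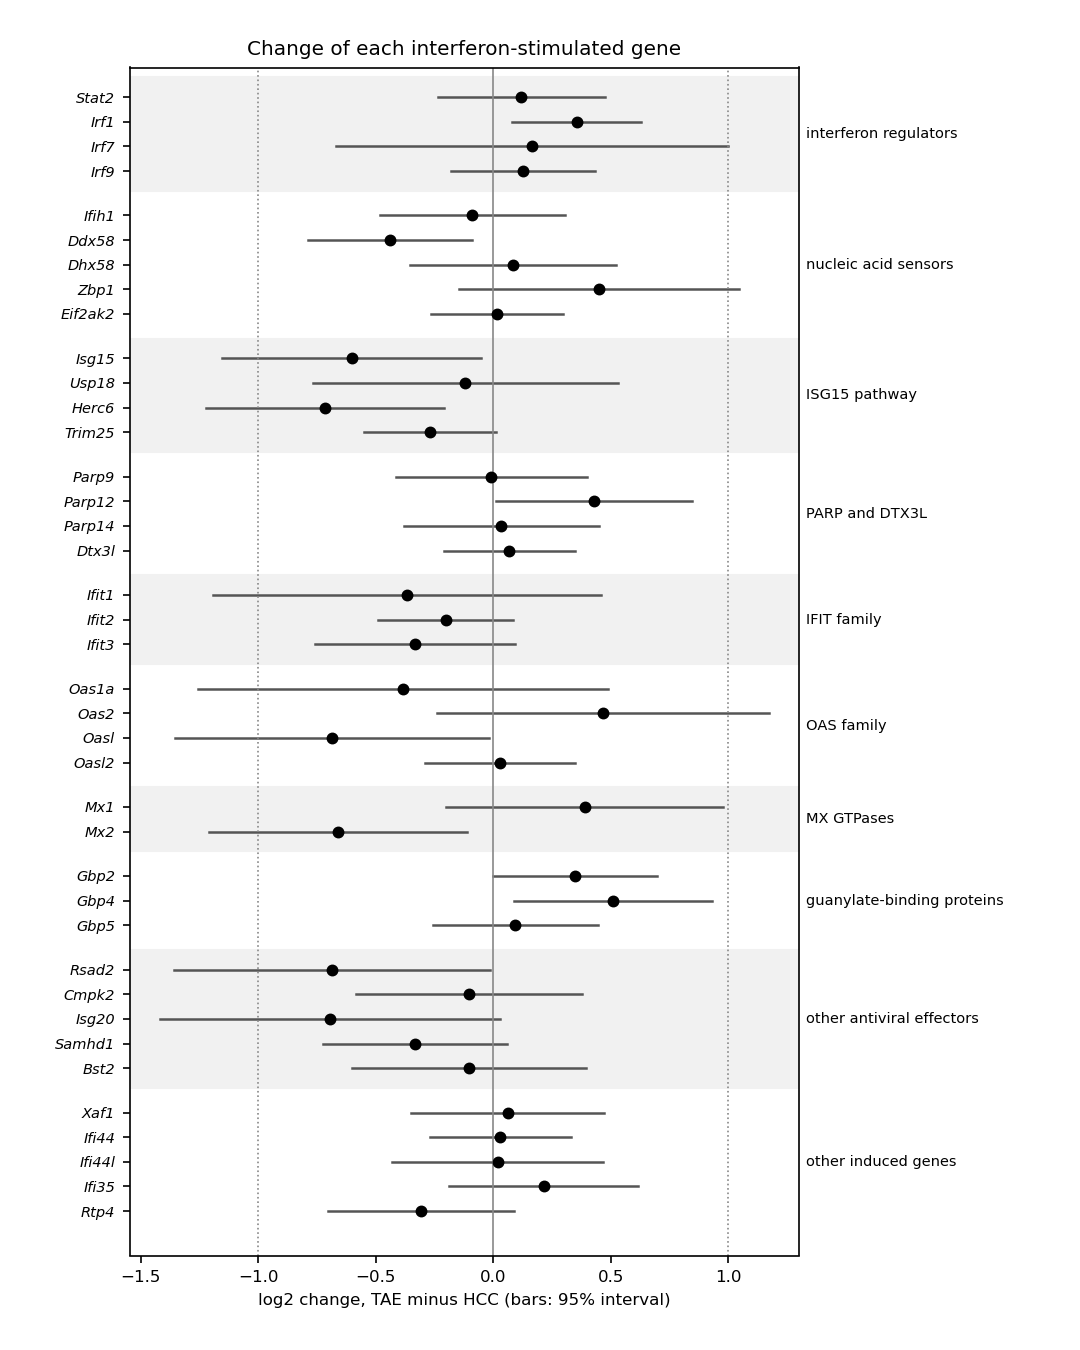
Log2 change (TAE minus HCC) of the 39 interferon-stimulated genes with 95% intervals as bars, grouped by role; dotted lines mark a 2-fold change. No member passed an adjusted p of 0.05, and 29 of the 39 intervals lie between the dotted lines.

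By level, Gbp2, Bst2 and Irf1 were the most abundant members per exon length and Oas2, Ifih1 and Zbp1 the least. Gbp2 averaged 229 ± 54.5 FPKM in TAE and 171 ± 15.5 FPKM in HCC (mean ± SD, n = 3 per group), Bst2 145 ± 27.3 FPKM in TAE and 152 ± 10.4 FPKM in HCC, and Irf1 133 ± 20.3 FPKM in TAE and 100.03 ± 2.29 FPKM in HCC. Oas2 averaged 3.27 ± 0.896 FPKM in TAE and 2.32 ± 0.35 FPKM in HCC. Summed over all 39 genes, the level was 1264, 1658 and 1335 FPKM in TAE replicates 1 to 3 and 1349, 1363 and 1450 FPKM in HCC replicates 1 to 3.

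**Figure D3:**
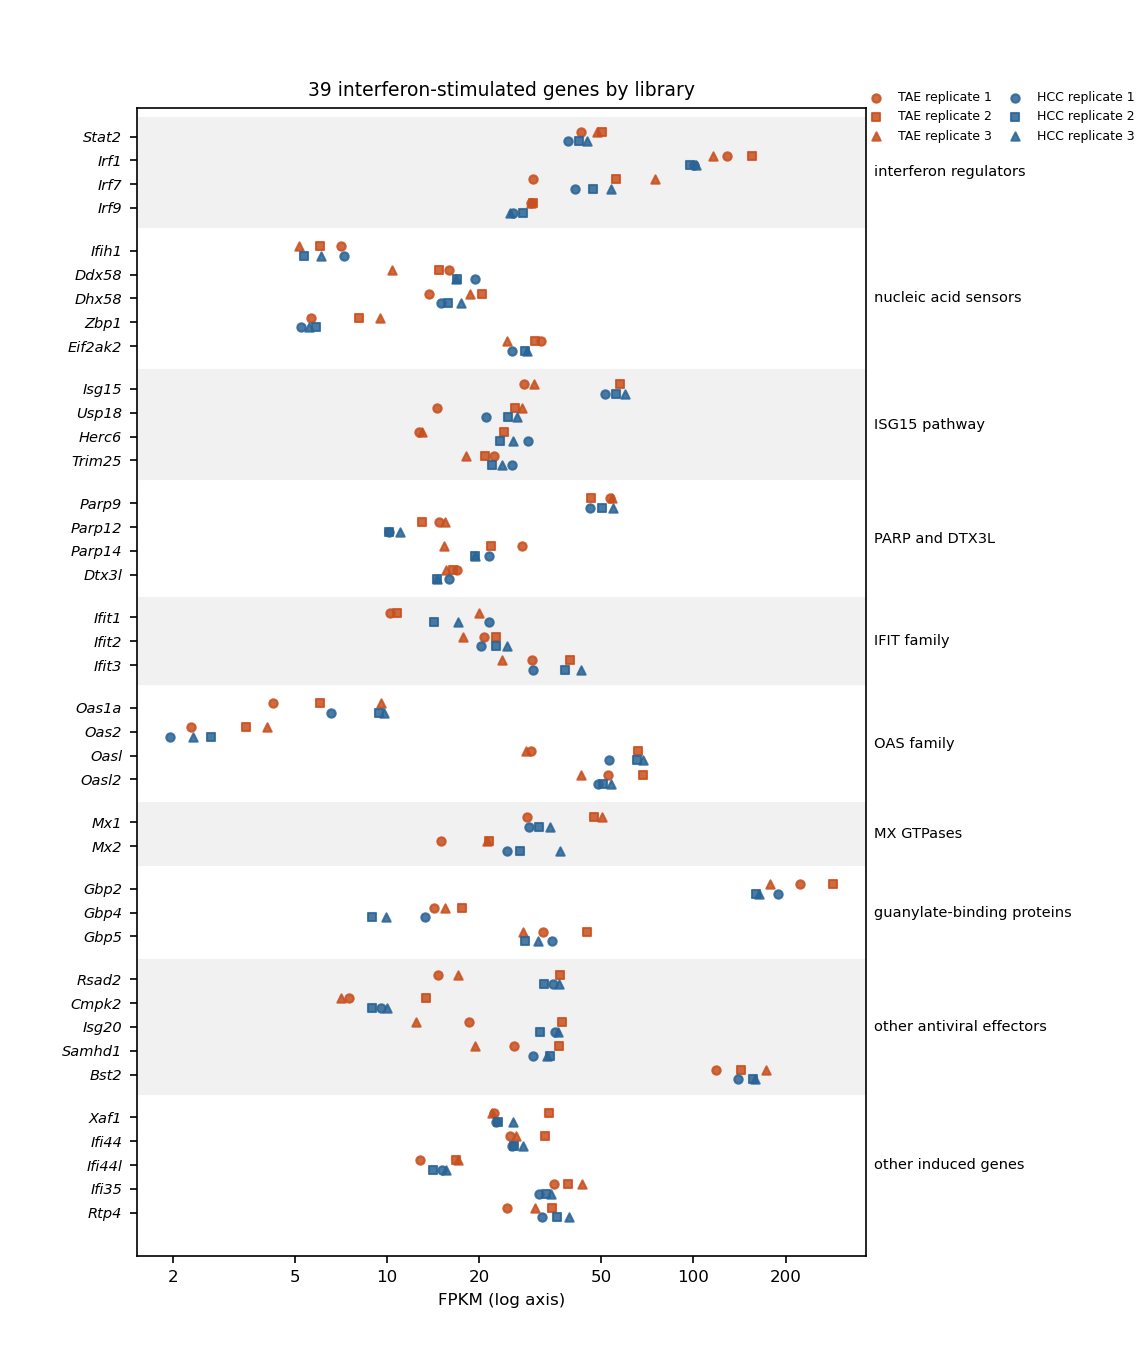
FPKM of each of the 39 genes (log axis) in TAE (orange) and HCC (blue) libraries; each point is 1 library, with circles, squares and triangles for replicates 1, 2 and 3. TAE points spread more widely than HCC points for most genes, and in Isg15, Oasl, Rsad2 and Isg20 the square of TAE replicate 2 sits among or above the HCC points while the other TAE points lie to their left.

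The interferon regulators, transcription factors that switch on the other members, all had log2 changes above 0 in edgeR's main test. Irf7 and Stat2 changed sign among the alternatives. Irf1, a factor induced within the response to interferon-gamma and inflammatory signals (ENSRNOG00000008144, chromosome 10), had 129, 156 and 116 FPKM in TAE replicates 1 to 3, against 101, 97.5 and 102 FPKM in HCC replicates 1 to 3. Every TAE library was above every HCC library, with a log2 change of 0.35 ± 0.12 (SE) and no call (edgeR adjusted p = 0.142). Irf9, the DNA-binding subunit of the complex that holds STAT2, had 29.5, 29.9 and 29.5 FPKM in TAE replicates 1 to 3, against 25.7, 27.9 and 25.3 FPKM in HCC replicates 1 to 3. The TAE libraries lay above the HCC libraries in FPKM but overlapped them after TMM scaling (log2 change 0.13 ± 0.13). Stat2, a transcription factor of type I interferon signalling, had 42.9, 50.2 and 48.7 FPKM in TAE and 38.98, 42.4 and 45.03 FPKM in HCC, with overlapping groups. Irf7, which amplifies type I interferon production, varied more than the other regulators, with 30.1, 55.9 and 75.03 FPKM in TAE and 41.02, 47.03 and 54.02 FPKM in HCC. TAE replicate 1 was the lowest and TAE replicate 3 the highest of all 6 libraries for Irf7, and its interval was -0.67 to 1.00 on the log2 scale.

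The sensors of foreign nucleic acid pointed in both directions. Ddx58, which encodes the RNA sensor RIG-I (ENSRNOG00000006384, chromosome 5), had 15.9, 14.8 and 10.4 FPKM in TAE replicates 1 to 3, against 19.4, 16.99 and 16.9 FPKM in HCC replicates 1 to 3. All TAE libraries were below all HCC libraries, with a log2 change of -0.44 ± 0.15 (edgeR adjusted p = 0.146). Ifih1, the RNA sensor MDA5, and Dhx58, the related regulator LGP2, had log2 changes of -0.09 and 0.08. Zbp1, a sensor of left-handed nucleic acid that can start necroptosis, had 5.66, 8.10 and 9.47 FPKM in TAE and 5.24, 5.88 and 5.56 FPKM in HCC, and TAE replicates 2 and 3 were above every HCC library while TAE replicate 1 was among them. Eif2ak2, the RNA-activated kinase PKR that halts translation, had a log2 change of 0.02 with an interval of -0.26 to 0.30.

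All 4 genes of the ISG15 pathway had log2 changes below 0 in edgeR's main test, though Usp18 changed sign among the alternatives. Isg15, a ubiquitin-like protein that is attached to other proteins and also secreted (ENSRNOG00000021802, chromosome 5), had 27.98, 57.8 and 30.2 FPKM in TAE replicates 1 to 3, against 51.3, 55.7 and 59.7 FPKM in HCC replicates 1 to 3. TAE replicates 1 and 3 were below every HCC library and TAE replicate 2 was among them in FPKM, though below them after TMM scaling. Its log2 change was -0.60 ± 0.24 (edgeR adjusted p = 0.192). Herc6, which in mouse is the ligase that attaches ISG15, had 12.8, 24.2 and 13.1 FPKM in TAE replicates 1 to 3, against 28.8, 23.4 and 25.8 FPKM in HCC replicates 1 to 3, the same pattern by library (log2 change -0.72 ± 0.22). Usp18, the protease that removes ISG15 and blocks the type I interferon receptor, had 14.6, 26.3 and 27.6 FPKM in TAE and 21.1, 24.8 and 26.7 FPKM in HCC, so that only TAE replicate 1 was below the HCC libraries and TAE replicate 3 was above them. Trim25, a ubiquitin ligase that activates RIG-I, had a log2 change of -0.27 ± 0.12. Its groups overlapped in FPKM, but after TMM scaling every TAE library was below every HCC library.

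Of the 4 ADP-ribosylation genes, Parp12 alone had groups that did not overlap. Parp12, an antiviral mono-ADP-ribosyltransferase (ENSRNOG00000008196, chromosome 4), had 14.8, 13.02 and 15.5 FPKM in TAE replicates 1 to 3, against 10.2, 10.1 and 11.04 FPKM in HCC replicates 1 to 3. Every TAE library was above every HCC library, with a log2 change of 0.43 ± 0.18 (edgeR adjusted p = 0.211). Parp9 and Dtx3l, which form a complex that modifies ubiquitin and histones, had intervals of -0.41 to 0.40 and -0.21 to 0.35 on the log2 scale. Parp14, a macro-domain ADP-ribosyltransferase, had 27.6, 21.9 and 15.3 FPKM in TAE and 21.6, 19.3 and 19.4 FPKM in HCC, with TAE replicate 1 highest and TAE replicate 3 lowest of the 6 libraries.

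The IFIT proteins bind viral RNA and limit its translation, and the 3 genes measured had log2 changes of -0.37 (Ifit1), -0.20 (Ifit2) and -0.33 (Ifit3). Ifit1 had 10.2, 10.8 and 20.01 FPKM in TAE replicates 1 to 3, against 21.6, 14.2 and 17.03 FPKM in HCC replicates 1 to 3: TAE replicates 1 and 2 were below every HCC library and TAE replicate 3 was among them. Ifit3 had 29.7, 39.6 and 23.7 FPKM in TAE replicates 1 to 3, against 30.1, 38.2 and 42.96 FPKM in HCC replicates 1 to 3, where instead TAE replicates 1 and 3 were below the HCC libraries. The family thus did not share 1 order of libraries.

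The OAS enzymes make the oligoadenylates that activate the ribonuclease RNase L. Oasl, a relative that enhances RIG-I signalling in humans (ENSRNOG00000001187, chromosome 12), had 29.5, 66.00 and 28.4 FPKM in TAE replicates 1 to 3, against 52.9, 65.4 and 68.6 FPKM in HCC replicates 1 to 3. Its level in TAE replicates 1 and 3 was below every HCC library and that in TAE replicate 2 among them (log2 change -0.69 ± 0.29, edgeR adjusted p = 0.212). Oasl2, its neighbour on chromosome 12, had 52.7, 68.7 and 43.04 FPKM in TAE and 49.03, 50.7 and 53.7 FPKM in HCC and a log2 change of 0.03. Oas1a had 4.26, 6.06 and 9.60 FPKM in TAE and 6.57, 9.44 and 9.78 FPKM in HCC, with TAE replicates 1 and 2 below the HCC libraries, and Oas2 had 2.29, 3.46 and 4.05 FPKM in TAE and 1.96, 2.66 and 2.33 FPKM in HCC, with TAE replicates 2 and 3 above them. The MX GTPases, which trap viral nucleoprotein, had log2 changes of opposite sign. Mx1 had 28.7, 47.5 and 50.5 FPKM in TAE and 29.2, 31.3 and 34.03 FPKM in HCC (log2 change 0.39 ± 0.25), whereas Mx2 had 14.97, 21.6 and 21.2 FPKM in TAE and 24.6, 27.2 and 36.8 FPKM in HCC (log2 change -0.66 ± 0.23, edgeR adjusted p = 0.16), all TAE libraries being below all HCC libraries for Mx2. Genes of the OAS, IFIT, MX and GBP families have close copies in the rat genome, and their values are uncertain as single genes because the counting could have split or dropped shared reads.

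The guanylate-binding proteins are GTPases that attack pathogen-containing vacuoles and are induced strongly by interferon-gamma. All 3 genes had log2 changes above 0 in edgeR's main test, though Gbp5 changed sign among the alternatives. Gbp2, the most abundant member (ENSRNOG00000031743, chromosome 2), had 222, 286 and 178 FPKM in TAE replicates 1 to 3, against 189, 161 and 164 FPKM in HCC replicates 1 to 3. TAE replicates 1 and 2 were above every HCC library, and TAE replicate 3 was among them in FPKM and above them after TMM scaling (log2 change 0.35 ± 0.15, edgeR adjusted p = 0.223). Gbp4 had 14.3, 17.6 and 15.4 FPKM in TAE replicates 1 to 3, against 13.3, 8.92 and 9.94 FPKM in HCC replicates 1 to 3. Its groups did not overlap, and its log2 change of 0.51 ± 0.18 was the highest of the 39 genes (edgeR adjusted p = 0.159). Gbp5, which also promotes inflammasome assembly, had 32.4, 45.1 and 27.9 FPKM in TAE and 34.6, 28.1 and 31.2 FPKM in HCC. In FPKM only TAE replicate 2 was above the HCC libraries, and TAE replicate 3 was below them.

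The remaining antiviral effectors had log2 changes below 0 in all 5 genes in edgeR's main test. Cmpk2 and Bst2 changed sign among the alternatives. Rsad2, which encodes viperin, an enzyme that makes a chain-terminating nucleotide (ENSRNOG00000007539, chromosome 6), had 14.7, 36.7 and 17.1 FPKM in TAE replicates 1 to 3, against 34.96, 32.6 and 36.4 FPKM in HCC replicates 1 to 3. TAE replicates 1 and 3 lay below every HCC library and TAE replicate 2 slightly above them in FPKM, though below them after TMM scaling (log2 change -0.69 ± 0.29, edgeR adjusted p = 0.213). Cmpk2, the nucleotide kinase encoded next to Rsad2 on chromosome 6, had 7.53, 13.5 and 7.06 FPKM in TAE and 9.55, 8.93 and 10.02 FPKM in HCC. TAE replicates 1 and 3 were below every HCC library and TAE replicate 2 above them on both scales (log2 change -0.10). Isg20, an exonuclease that degrades RNA, had 18.6, 37.2 and 12.4 FPKM in TAE replicates 1 to 3, against 35.3, 31.5 and 36.1 FPKM in HCC replicates 1 to 3, again with TAE replicates 1 and 3 below the HCC libraries (log2 change -0.70 ± 0.31). Samhd1, which depletes deoxynucleotides, had 26.1, 36.4 and 19.4 FPKM in TAE and 30.1, 34.03 and 33.4 FPKM in HCC, again with TAE replicates 1 and 3 below every HCC library and TAE replicate 2 above them in FPKM. Bst2, or tetherin, which holds budding virions at the cell surface, had 118, 143 and 173 FPKM in TAE and 140.4, 157 and 159.5 FPKM in HCC, with TAE replicate 1 lowest and TAE replicate 3 highest of the 6 libraries. Among other induced genes, Ifi35 had 35.2, 38.97 and 43.4 FPKM in TAE and 31.3, 32.98 and 34.4 FPKM in HCC, groups that did not overlap in FPKM but did after TMM scaling. Xaf1, Ifi44, Ifi44l and Rtp4 had log2 changes of 0.06, 0.03, 0.02 and -0.31.

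Counted by FPKM, 5 of the 39 genes had every TAE library above every HCC library (Irf1, Irf9, Parp12, Gbp4 and Ifi35), against 21.9% of all genes tested, and 2 had every TAE library below (Ddx58 and Mx2), against 5.54% of all genes. After TMM scaling these counts were 4 and 7, against 18.6% and 13.4% of all genes, so that which members separate the groups depends on the scaling.

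The TAE libraries differed among themselves. The SD of log2 CPM over the 3 libraries had a median of 0.29 over the members in TAE and 0.12 in HCC, beside 0.33 and 0.14 over all genes tested. It was larger in TAE for 34 of the 39 members (87.2%) and for 82.7% of all genes, both counted by FPKM. TAE replicate 1 was the lowest of the 3 TAE libraries for 19 members (48.7%) by FPKM and 23 (59.0%) after TMM scaling, while over all genes these shares were 12.2% and 18.2%. For 10 members (Cmpk2, Herc6, Ifit3, Isg15, Isg20, Oasl, Rsad2, Rtp4, Samhd1 and Xaf1) TAE replicates 1 and 3 were below every HCC library in FPKM and TAE replicate 2 was not, a pattern found in 20.9% of all genes. After TMM scaling it held for 5 members (Cmpk2, Ifit3, Isg20, Oasl and Samhd1) and 15.1% of all genes. The median member stood at -0.11, 0.15 and -0.01 (log2 FPKM) from the HCC mean in TAE replicates 1, 2 and 3, and at -0.20, -0.05 and 0.13 after TMM scaling.

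**Figure D4:**
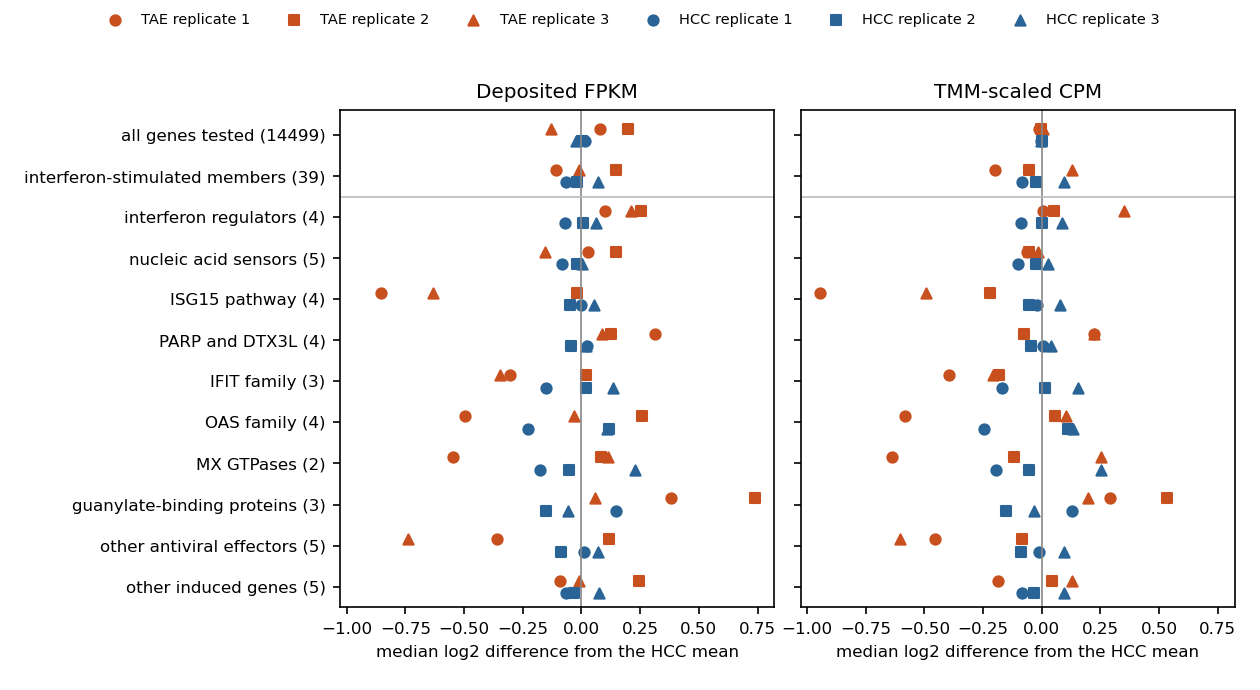
Median log2 difference from the HCC mean in each library for all genes tested, the 39 members and each role (number of genes in brackets), in deposited FPKM (left) and TMM-scaled CPM (right); orange is TAE, blue HCC. For the ISG15 pathway, TAE replicates 1, 2 and 3 stand at -0.85, -0.02 and -0.63 in FPKM and at -0.94, -0.22 and -0.49 after TMM scaling. For the guanylate-binding proteins all TAE libraries lie above 0.

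The calls depended on single libraries. Without TAE replicate 2, edgeR called 7 members, of which Parp12 was higher and Isg15, Herc6, Oasl, Rsad2, Isg20 and Samhd1 were lower in TAE, while 14.6% of all genes were called higher and 9.56% lower. In that fit the log2 changes were -0.90 for Isg15, -0.98 for Herc6, -1.08 for Oasl, -1.08 for Rsad2, -1.14 for Isg20 and -0.50 for Samhd1 (edgeR adjusted p = 0.0107, 0.00807, 0.00831, 0.00834, 0.00824 and 0.0331), and 0.57 for Parp12 (0.0337). Without TAE replicate 3, edgeR called Ifit1 alone (log2 change -0.87, adjusted p = 0.0376), against 8.33% of all genes. With DESeq2, an alternative chosen after seeing the data, the same 7 members were called without TAE replicate 2, against 25.8% of all genes, and 4 members (Ifit1, Oas1a and Mx2 lower, Gbp2 higher) without TAE replicate 3, against 14.1%. Without TAE replicate 1 or any 1 HCC library, 0 members passed, and edgeR then called 0 or 1 gene of all those tested. TAE replicate 2 also had the lowest hepatocyte markers of the 6 libraries, with a summed level of 9738 FPKM, and among the TAE libraries the lowest summed macrophage markers (3564 FPKM, beside 4506 and 4696 FPKM in TAE replicates 1 and 3). The part of these differences in the members' values was not tested.

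The type I and type III interferon genes had few or no counts in both groups. Of the 12 ligand genes in the table, 8 had no count in any library (Ifna1, Ifna2, Ifna5, Ifna11, Ifna16l1, Ifnk, Ifnl1 and Ifnl3), and Ifna4 and Ifne had too few to test. Ifnb1, the interferon-beta gene, had 2, 4 and 0 counts in TAE replicates 1 to 3 and 1, 5 and 0 counts in HCC replicates 1 to 3, and was not tested. A count of 0 allows up to 3 counts per library, as counting error alone. Ifng, the interferon-gamma gene of T and NK cells, was the only ligand tested and had 5.79, 8.04 and 4.25 FPKM in TAE replicates 1 to 3, against 4.50, 7.58 and 4.72 FPKM in HCC replicates 1 to 3, with overlapping groups and a log2 change of 0.03 ± 0.32 (edgeR adjusted p = 0.958). T and NK cell markers, for which 0 of 11 tested genes passed, summed to 286 to 484 FPKM in TAE and 158 to 224 FPKM in HCC. Markers of plasmacytoid dendritic cells, strong producers of type I interferon, summed to 22.6 to 25.8 FPKM in TAE and 18.5 to 21.0 FPKM in HCC. None of the 6 passed, and their defining gene Siglech stood at 0.71, 1.45 and 0.48 FPKM in TAE and 1.94, 1.23 and 1.47 FPKM in HCC.

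Receptors and JAK-STAT components had mostly positive log2 changes. Of 10 genes, 1 rose and 9 did not pass, beside 2.7% of all genes called higher. Log2 changes were above 0 for 9 of the 10, and the median was 0.54, beside 0.02 for the 39 members and -0.03 for all genes. In FPKM 8 of the 10 had every TAE library above every HCC library, against 21.9% of all genes, and none had every TAE library below. Ifngr1, the ligand-binding chain of the interferon-gamma receptor (ENSRNOG00000012074, chromosome 1), rose and had 131, 87.5 and 104 FPKM in TAE replicates 1 to 3, against 50.5, 49.4 and 41.2 FPKM in HCC replicates 1 to 3. Every TAE library was above every HCC library, by a log2 change of 1.15 ± 0.20 (edgeR adjusted p = 0.0406). Ifnar1, a chain of the type I receptor, had 46.5, 39.9 and 41.3 FPKM in TAE replicates 1 to 3, against 25.9, 28.1 and 26.9 FPKM in HCC replicates 1 to 3, with groups that did not overlap (log2 change 0.61 ± 0.14, edgeR adjusted p = 0.0634). Its partner Ifnar2 had 33.1, 36.5 and 34.01 FPKM in TAE and 35.1, 34.5 and 35.7 FPKM in HCC and a log2 change of -0.07.

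Of 13 genes of nucleic acid sensing and interferon induction, 3 rose (Irf5, Irf8 and Tlr7), 10 did not pass, and the median log2 change was 0.43. Among all genes tested, 2.7% were called higher. Irf5, a factor of macrophage activation, had 31.4, 26.1 and 24.2 FPKM in TAE replicates 1 to 3, against 11.9, 10.4 and 9.33 FPKM in HCC replicates 1 to 3, a log2 change of 1.32 ± 0.15 (edgeR adjusted p = 0.0388). Irf8, a lineage factor of monocytes and dendritic cells, had 78.98, 73.1 and 74.01 FPKM in TAE and 43.02, 39.1 and 36.7 FPKM in HCC, and Tlr7, an endosomal RNA receptor, had 13.4, 12.1 and 18.3 FPKM in TAE and 4.96, 6.89 and 5.75 FPKM in HCC. In FPKM every TAE library was above every HCC library for 8 of the 13 genes, these 3 among them, against 21.9% of all genes. No gene of the list had every TAE library below. The DNA sensor Cgas had a log2 change of 0.03 and its partner Sting1 one of 0.37, while the adaptor Mavs and the factor Irf3 were at 0.21 and 0.00, and none of these 4 passed. Of 10 negative regulators, 1 rose and 9 did not pass, beside the same 2.7% of all genes. The gene that rose was Ptpn6, the phosphatase SHP-1 of blood cells. It had 64.4, 66.01 and 68.3 FPKM in TAE and 36.9, 36.7 and 39.98 FPKM in HCC. Socs1, an inhibitor of JAK kinases that interferons induce, had 8.83, 12.7 and 7.53 FPKM in TAE and 5.45, 7.99 and 5.67 FPKM in HCC.

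Genes that respond to interferon-gamma differed among themselves. Of 20 tested, 1 rose (Ciita) and 19 did not pass, beside 2.7% of all genes called higher, and the median log2 change was 0.21. Ciita, which switches on MHC class II genes, had 28.2, 22.7 and 22.2 FPKM in TAE and 13.5, 12.8 and 10.9 FPKM in HCC (log2 change 0.93 ± 0.15, edgeR adjusted p = 0.0393). The chemokines Cxcl9 and Cxcl10, which draw activated T cells, had log2 changes of 0.01 and -0.51. Cxcl10 had 111, 239.6 and 104 FPKM in TAE replicates 1 to 3, against 162, 216 and 229 FPKM in HCC replicates 1 to 3, so that TAE replicates 1 and 3 were below every HCC library and TAE replicate 2 above them in FPKM. In a further list of 35 interferon-stimulated genes outside the 39, 1 rose (Epsti1), a share near the 2.7% of all genes called higher. The other 34 did not pass, 24 of the 35 had log2 changes above 0, and the median was 0.13. In FPKM 17 of the 35 had every TAE library above every HCC library, against 21.9% of all genes. For 1 every TAE library was below, against 5.54%. After TMM scaling these counts were 15 and 1, against 18.6% and 13.4%. Unadjusted p in edgeR's test was under 0.05 for 13 higher and 1 lower in TAE, against 15.9% and 6.82% of all genes. Epsti1, an interferon-induced gene expressed in macrophages, had 40.1, 35.02 and 24.6 FPKM in TAE and 18.6, 17.03 and 13.7 FPKM in HCC (log2 change 0.95 ± 0.17, edgeR adjusted p = 0.0435).

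Of 13 macrophage markers tested, 6 rose in TAE (Cd68, Csf1r, Msr1, Fcgr1a, Aif1 and Lyz2), beside 2.7% of all genes called higher. The other 7 did not pass. Of those 7, Adgre1, Mrc1, Cd14 and Vsig4 had log2 changes of 1.26, 1.11, 0.58 and 0.42, and Cd163, Marco and Clec4f had log2 changes of -0.10, -0.05 and -0.38. The list summed to 3564 to 4696 FPKM in TAE and 1238 to 1508 FPKM in HCC, most of it Lyz2 (3534, 2790.1 and 3353 FPKM in TAE and 675, 923 and 805 FPKM in HCC), and no marker was at 0 in all 6 libraries. The part of these markers in the higher Irf5, Irf8, Tlr7, Ptpn6, Ciita, Ifngr1 and Epsti1 was not tested. These 7 calls were lost without TAE replicate 1 or any 1 HCC library, when edgeR called 0 genes of these lists. Without TAE replicate 2, edgeR called 7 of the receptor and JAK-STAT genes, 5 of the sensing genes, 2 of the negative regulators, 8 of the interferon-gamma-responsive genes (5 higher, 3 lower in TAE) and 8 of the further interferon-stimulated genes, where 24.2% of all genes were called. Without TAE replicate 3 these counts were 2, 3, 1, 2 and 8, with 3 of the last 8 lower in TAE, where 8.33% of all genes were called.

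**Figure D5:**
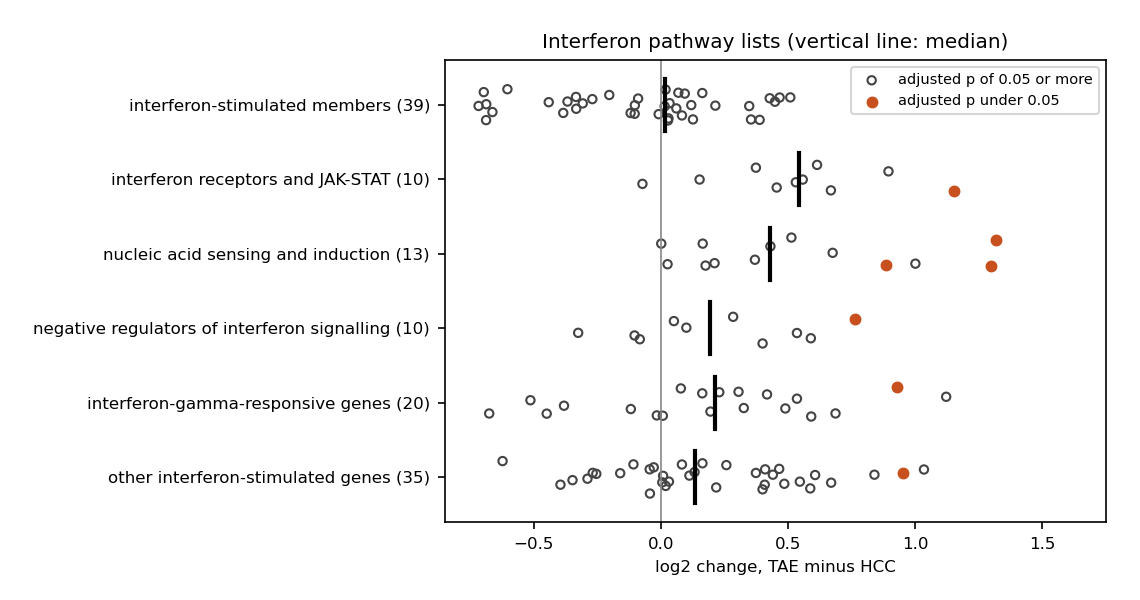
Log2 change (TAE minus HCC) of each tested gene in the 39 members and 5 further interferon lists (number of genes in brackets); filled points passed an adjusted p of 0.05 in edgeR's test, and vertical bars are medians. No member is filled, and the medians are 0.02 for the members and 0.54 for receptors and JAK-STAT genes.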

How the data were processed

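Liver RNA of the TAE and HCC groups (3 libraries each) was sequenced as stranded poly(A) libraries, per the labels' protocols. The authors deposited raw read counts per gene and FPKM for each library, per the file headers. The submitters' processing notes give mRatBN7.2 as build, but some gene ends in the deposited table may lie beyond that build's chromosome 1, so its build is not settled and no gene coordinates from it are given. The sources used here do not give the aligner, counter or annotation. All deposited FPKM values were recomputed from counts, exonic size and library totals within 0.006.

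Genes were found by symbol, and the members and lists were chosen with earlier results of these data known. Every member may be named, as may each pathway gene that passed the test and 13 pathway genes named whatever their values. One of these is not reported here. Of 182 list entries, 168 matched. Counts were tested with edgeR 4.0.16 in R 4.3.3 (filterByExpr, TMM, quasi-likelihood test, Benjamini-Hochberg adjustment over 14499 genes, threshold 0.05), after a check on simulated data. DESeq2 1.42.0, limma 3.58.1 on log2(FPKM + 1), other scalings and filters, a replicate block and leaving out each library were alternatives. Replicate pairs differed by more than sampling noise. Intervals are at 95%. Totals were 13448286 to 16604067 counts per library, and a floor of 3 counts covers counting error only.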

Additional observations from a re-analysis of the deposited data

How the results depend on the processing

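Over all tested genes, 437 were called with TMM scaling and the count filter, against 720 with upper-quartile scaling, 829 with no filter, 1667 with DESeq2, and 701 and 709 with limma at pseudocounts of 1 and 0.1. Leaving out 1 library gave 0 to 3569 calls. The count of members called was 0 in every edgeR and limma setting with all 6 libraries and 1 with DESeq2 (Herc6), and 0 to 7 when 1 library was left out. With DESeq2, an alternative chosen after seeing the data, 4118 genes and 7 members were called without TAE replicate 2, and 2126 genes and 4 members without TAE replicate 3 (Ifit1, Oas1a and Mx2 lower, Gbp2 higher). The cause was not tested. The median log2 change of the members lay between -0.07 and 0.07 in these settings.

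Whether replicate numbers pair the libraries could not be settled. The deviations of same-numbered libraries from their group means correlated at 0.1002, -0.209 and 0.0335 over genes. These values come from only 3 libraries per group and cannot exclude pairing. With the replicate block, edgeR called 0 genes (2984 at an unadjusted p under 0.05) and 0 members. With 3 libraries per group, a 2-fold change lay inside the interval of 10 members.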
